A study of Mus musculus with 12 samples.

Results

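The replication-dependent histone genes are the gene family whose messages supply histones for newly copied DNA. They were taken as the protein-coding genes whose GENCODE M21 symbol begins with Hist1h, Hist2h, Hist3h or Hist4h followed by a histone class, and 63 of the 22195 genes listed in the deposited files met that rule, of 67 such genes annotated. The members were 6 linker genes of class H1, 16 genes of H2a, 17 of H2b, 12 of H3 and 12 of H4. Of these, 51 lay in histone cluster 1 on chromosome 13, 9 in cluster 2 on chromosome 3, 2 in cluster 3 on chromosome 11 and 1 on chromosome 6. RNA came from whole subcutaneous tumours grown from YUMM2.1, a mouse melanoma cell line, in C57BL/6J mice with an intact immune system. Antibodies were given from a tumour volume of 20 to 50 mm3, and the 4 groups of 3 libraries each received IgG as isotype control, an antibody against B7-H3 (a checkpoint protein of tumour and stromal cells), an antibody against PD1 (a checkpoint receptor of T cells), or both antibodies, here called the combination. All groups share the line and the strain, and the labels call the tumours allografts. Whether libraries come from separate mice is not stated in the labels, and p-values therefore measure only the spread between these libraries.

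Core histones H2A, H2B, H3 and H4 form the protein spool around which DNA is wound, and linker histone H1 binds where DNA enters and leaves the spool. Most messages of these genes end in a stem-loop in place of a poly(A) tail, the stem-loop is bound by the protein SLBP, and the messages are made mainly while DNA is being copied and are degraded when copying stops. Libraries enriched for poly(A) RNA therefore miss most of them, whereas the libraries here were made from total RNA depleted of ribosomal RNA. In whole tumours, fewer dividing cells and less histone message per cell cannot be told apart.

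The stem-loop was looked for in the annotated transcripts (GENCODE M21, GRCm38), because it is the feature by which these messages are processed and by which the H4 genes differ from the rest. Among 47 members with at least 40 annotated bases after the stop codon, 41 held it, with the first base 22 to 59 bases after the stop codon. Capitals mark the stem-loop in these examples, of which Hist1h4j shows a form seen only in H4 and the others come from genes to which the results return.
Hist1h1c: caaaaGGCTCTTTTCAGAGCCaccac
Hist2h2aa2: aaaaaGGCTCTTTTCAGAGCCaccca
Hist1h3c: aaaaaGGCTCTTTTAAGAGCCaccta
Hist1h4d: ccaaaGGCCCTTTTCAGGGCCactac
Hist1h4j: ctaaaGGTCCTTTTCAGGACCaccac
The first form was the most frequent, in 3 members of H1, 8 of H2a, 8 of H2b and 5 of H3. None of the 10 H4 members with a stem-loop had that form, and the H4 forms were found in no other class.

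Promoters were read from RefSeq (GRCm38.p6) for 58 of the 63 members, as 250 bases before to 50 bases after the start site. Those of the linker genes Hist1h1a and Hist1h1e are shown because the share of the first among linker reads was higher, and that of the second lower, in the same groups. The Hist1h1a promoter lies at chr13:23763418-23763717 on the plus strand and the Hist1h1e promoter at chr13:23622509-23622808 on the minus strand, both written 5′ to 3′ in the direction of transcription. Capitals mark CCAAT, the TATA-box letters TATAA and the H1-box letters AAACACA, searched on both strands, none of which overlap.
Hist1h1a: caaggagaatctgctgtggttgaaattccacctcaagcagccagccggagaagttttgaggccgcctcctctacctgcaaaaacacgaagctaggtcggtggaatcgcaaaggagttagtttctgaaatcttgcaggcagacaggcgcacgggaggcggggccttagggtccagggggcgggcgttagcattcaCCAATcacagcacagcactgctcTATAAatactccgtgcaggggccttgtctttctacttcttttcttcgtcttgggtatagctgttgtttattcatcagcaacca
Hist1h1e: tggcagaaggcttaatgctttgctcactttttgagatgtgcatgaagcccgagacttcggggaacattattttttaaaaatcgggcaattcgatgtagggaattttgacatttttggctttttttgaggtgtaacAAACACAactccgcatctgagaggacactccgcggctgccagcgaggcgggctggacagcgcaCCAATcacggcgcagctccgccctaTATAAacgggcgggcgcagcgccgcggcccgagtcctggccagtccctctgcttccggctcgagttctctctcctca
The letters CCAAT began 56 bases before the start site of Hist1h1a and 52 bases before that of Hist1h1e. They were in the windows of all 47 members of H1, H2a, H2b and H3 that have one, in 3 of 11 H4 windows, and in 41.1% of 27025 promoters of all genes. AAACACA was in 5 of 6 linker windows, in 8.22% of all promoters, and not in the window of Hist1h1a. The octamer ATTTGCAT was in 7 of 16 H2a and 7 of 15 H2b windows, in none of the other classes and in 1.97% of all promoters. TATAA was in 5 of 6 H1, 14 of 16 H2a, 12 of 15 H2b, 5 of 10 H3 and 10 of 11 H4 windows, against 28.0% of all promoters. These matches describe letters only.

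Coding sequences within a core class were close to identical, which limits what a read can be assigned to. The median identity between pairs was 97.0% in H2a, 97.1% in H2b, 97.6% in H3 and 93.9% in H4, taken between members of equal coding length. Of all stretches of 31 bases in a member's coding sequence, the share found in no other listed member was under 25% for 39 members and 0% for Hist1h2ad, Hist1h2ag, Hist1h2bc and Hist2h3c2. It was at least 60% for 14 members, including all 6 linker genes, for which it ran from 65.4% in Hist1h1d to 100% in Hist1h1t. Values of single core members are therefore uncertain, and class sums and linker genes are less exposed to reads shared between members. Stretches shared with genes outside the family, such as the variant histones, were not searched for. For the 4 annotated members not analysed here (Hist1h2ap, Hist1h2br, Hist1h4n and Hist2h2aa1), a listed member has the same coding sequence.

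Library totals ran from 15585622 to 21298142 reads under isotype control, 3593110 to 3937727 under anti-B7-H3, 8099713 to 10527704 under anti-PD1 and 4409772 to 5014931 under the combination. A set of 12 satellite-like genes took 90.3% to 93.7% of matched reads under isotype control, 0.0944% to 0.222% under anti-B7-H3, 68.7% to 74.5% under anti-PD1 and 30.1% to 34.0% under the combination. Smell and taste receptor genes, used as a measure of background, were highest in the groups in which that share was highest. At their rate, background alone would give 5.06% to 6.30% of histone reads under isotype control and 0.0124% to 0.0164% under anti-B7-H3. Of 7 melanocyte genes, Dct and Tyrp1, which make melanin, had 0 reads under anti-B7-H3, but under isotype control their 27 and 18 reads were also no more than the 35.7 and 23.4 that background would give. Sox10, a transcription factor of melanocytes, held most reads of the list, and the summed level was 90.6 to 107 CPM (reads scaled to a common library total by TMM, the trimmed mean of log ratios between libraries) under isotype control, 25.5 to 28.8 under anti-B7-H3, 83.1 to 86.9 under anti-PD1 and 44.4 to 46.8 under the combination. The labels name a skin tumour in every group.

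Histone messages were measured in every library. Isotype control libraries held 3939, 3011 and 3658 histone reads, anti-B7-H3 libraries 18127, 15852 and 17070, anti-PD1 libraries 14438, 12897 and 12755, and combination libraries 17201, 16394 and 19613. Isotype control had the fewest in every library although its totals were the largest. Of reads outside the satellite-like genes, histone genes took 0.225% to 0.266% under isotype control, 0.444% to 0.463% under anti-B7-H3, 0.482% to 0.517% under anti-PD1 and 0.556% to 0.565% under the combination. None of these ranges overlap, and the denominator holds different amounts of background.

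By class, summed levels in TMM-scaled CPM were higher in every combination library than in every anti-B7-H3 library. For H4, which forms the inner core of the spool with H3, the sum was 270 ± 37.5 (SD, n = 3) under isotype control, 300 ± 12.2 under anti-B7-H3, 403 ± 18.2 under anti-PD1 and 383 ± 5.46 under the combination. For H3 it was 314 ± 30.3, 319 ± 11.9, 423 ± 20.8 and 383 ± 9.63 in the same order. The linker class H1 was at 246 ± 19.7, 254 ± 5.34, 314 ± 3.78 and 317 ± 5.53. Isotype control and anti-B7-H3 libraries overlapped in H1, H2a, H3 and H4, and anti-PD1 and combination libraries overlapped in H1, H2a, H2b and H4. The order of the groups that include isotype control depends on the scaling, as given below. The classes also differed in their shares of histone reads, by a few percentage points. H4 took 21.4% ± 1.57, 22.3% ± 0.490, 24.1% ± 0.603 and 23.8% ± 0.168, and H2b took 11.4% ± 1.17, 13.5% ± 0.287, 11.3% ± 0.563 and 11.9% ± 0.377. The H2b share was higher in every anti-B7-H3 library than in all the others, and the H4 share was lower in every anti-B7-H3 library than in every anti-PD1 and combination library.

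**Figure D1:**
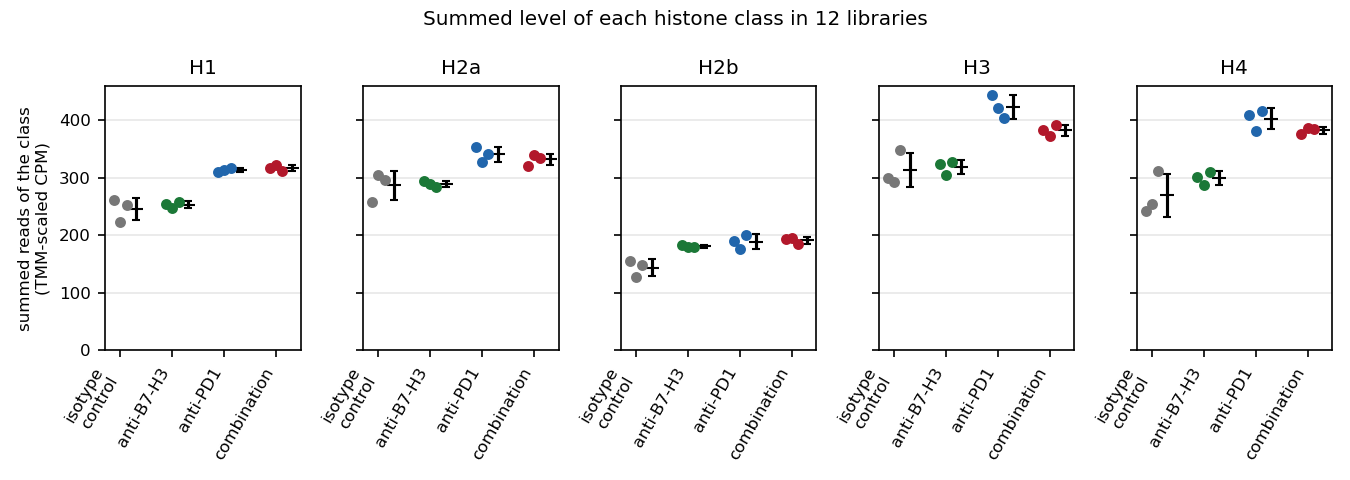
Summed TMM-scaled CPM of each histone class (vertical axis) in 12 libraries, by antibody group (horizontal axis); points are libraries, and the bar beside them is the mean with its SD (n = 3). In each of the 5 classes the 3 combination points lie above the 3 anti-B7-H3 points, while the height of the isotype control points against the rest depends on the scaling (anti-B7-H3 and combination against isotype control turn from a higher to a lower median when background is subtracted).

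Per kilobase of coding length, the members with most reads over the 12 libraries were Hist1h4d, Hist2h2aa2, Hist1h4m, Hist1h4h and Hist1h2ao. Where a listed member has the same coding sequence as an annotated gene not analysed here, its reads may come from either. The order is thus of coding sequences and not always of single genes. Levels of Hist1h4d were 185 ± 37.9 CPM per kilobase under isotype control, 186 ± 14.5 under anti-B7-H3, 258 ± 13.0 under anti-PD1 and 231 ± 11.4 under the combination. Hist2h2aa2, an H2a gene of cluster 2, had 149 ± 7.405, 190 ± 4.69, 188 ± 19.2 and 210 ± 7.01. Hist1h4m had 139 ± 45.0, 141 ± 5.16, 186 ± 10.04 and 190 ± 7.96. Hist1h4m and Hist1h4h did not differ beyond their spread under isotype control, where Hist1h4h had 114 ± 23.1. The most abundant H3 and H2b genes stood lower, Hist1h3f with 94.1 ± 13.2, 89.3 ± 7.89, 117 ± 7.18 and 116 ± 12.5, and Hist2h2bb with 63.4 ± 4.80, 61.7 ± 2.88, 75.6 ± 9.18 and 78.8 ± 4.77.

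The mix of linker histones differed between groups, and this does not depend on the scaling because it is a share within each library. Hist1h1a, a linker gene whose message is restricted to few tissues, had 26, 17 and 15 reads under isotype control, 267, 258 and 243 under anti-B7-H3, 55, 50 and 58 under anti-PD1 and 197, 168 and 234 under the combination. Isotype control was the lowest group in reads, and background at the receptor-gene rate would account for 14.7 of its 58 reads. Of H1 reads, Hist1h1a took 2.77% ± 0.488 (SD, n = 3) under isotype control, 7.98% ± 0.561 under anti-B7-H3, 2.17% ± 0.207 under anti-PD1 and 5.68% ± 0.511 under the combination. The lowest share in a library given anti-B7-H3, alone or with anti-PD1, was 5.14%, and the highest without it was 3.07%. With background subtracted the shares were 2.14% ± 0.492, 7.98% ± 0.561, 2.05% ± 0.209 and 5.67% ± 0.512.

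In the edgeR quasi-likelihood fit over all genes, Hist1h1a rose by a log2 fold change of 1.55 ± 0.172 (SE) under anti-B7-H3 (adjusted p = 2.15e-12) and 1.39 ± 0.177 under the combination (adjusted p = 3.27e-10), both against isotype control. It was higher under the combination than under anti-PD1 by 1.41 ± 0.126 (adjusted p = 1.83e-15). All 3 calls stood under each of the 24 alternatives run. Its value for anti-PD1 against isotype control was -0.02, which did not pass the test. When library size was set to the summed histone reads, so that a gene is compared with its family, Hist1h1a was 1.46 higher under anti-B7-H3 (adjusted p = 1.88e-10) and 1.04 higher under the combination (adjusted p = 3.27e-06) than under isotype control.

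Hist1h1c, a linker gene also expressed in cells that do not divide, moved with Hist1h1a. It had 166, 120 and 162 reads under isotype control, 1093, 954 and 1034 under anti-B7-H3, 554, 521 and 543 under anti-PD1 and 926, 886 and 1004 under the combination. Its share of H1 reads was 21.6% ± 2.14, 31.9% ± 0.220, 21.5% ± 0.860 and 26.8% ± 0.363, and the libraries given anti-B7-H3 did not overlap with the others. Relative to the histone family it was 0.52 higher (log2) under anti-B7-H3 than under isotype control (adjusted p = 7.91e-08), 0.33 higher under the combination than under isotype control (adjusted p = 3.88e-04) and 0.39 higher under the combination than under anti-PD1 (adjusted p = 2.96e-07). On the scale of all genes it rose by 0.61 ± 0.0740 under anti-B7-H3 (adjusted p = 5.13e-11), but its value with background subtracted was -0.08, which did not pass the test.

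Hist1h1e, a linker gene abundant in dividing and resting cells, went the other way. Its reads were 291, 181 and 225 under isotype control, 844, 771 and 775 under anti-B7-H3, 839, 825 and 774 under anti-PD1 and 894, 825 and 990 under the combination. Its share of H1 reads was 33.3% ± 1.006, 24.8% ± 0.913, 32.4% ± 0.612 and 25.8% ± 0.480, again with no overlap between libraries given anti-B7-H3 and the others. Relative to the family it was lower by a log2 value of -0.48 under anti-B7-H3 against isotype control (adjusted p = 1.57e-07) and of -0.26 under the combination against anti-PD1 (adjusted p = 3.79e-04). On the scale of all genes Hist1h1e fell by 0.39 ± 0.0672 under anti-B7-H3 against isotype control (adjusted p = 5.96e-07) and by 0.31 ± 0.0515 under the combination against anti-PD1 (adjusted p = 4.47e-07). On that scale it did not differ between the combination and isotype control, at 81.8 ± 0.844 and 82.0 ± 8.88 CPM. On the same scale, its lower share under the combination than under isotype control was thus not a lower level. That comparison depends on the scaling, and with background subtracted the median over members fell from 0.34 to -0.20.

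Hist1h1b and Hist1h1d, linker genes made mainly in dividing cells, had their lowest shares under anti-B7-H3 alone. Hist1h1b took 14.9% ± 0.721, 11.8% ± 0.447, 16.5% ± 0.592 and 15.7% ± 1.41 of H1 reads in the order isotype control, anti-B7-H3, anti-PD1 and combination. Hist1h1d took 27.0% ± 1.48, 23.0% ± 1.20, 26.7% ± 1.497 and 25.5% ± 0.807. The anti-B7-H3 libraries lay below all the others in both genes. Larger shares of Hist1h1a and Hist1h1c leave a smaller summed share for the other linker genes, whatever their own levels. The low shares of Hist1h1b, Hist1h1d and Hist1h1e are therefore not separate results. In scaled terms Hist1h1b was at 36.8 ± 4.57 CPM under isotype control and 29.9 ± 1.54 under anti-B7-H3. Hist1h1d was at 66.4 ± 3.57 and 58.3 ± 4.24. These differences in level depended on the scaling.

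**Figure D2:**
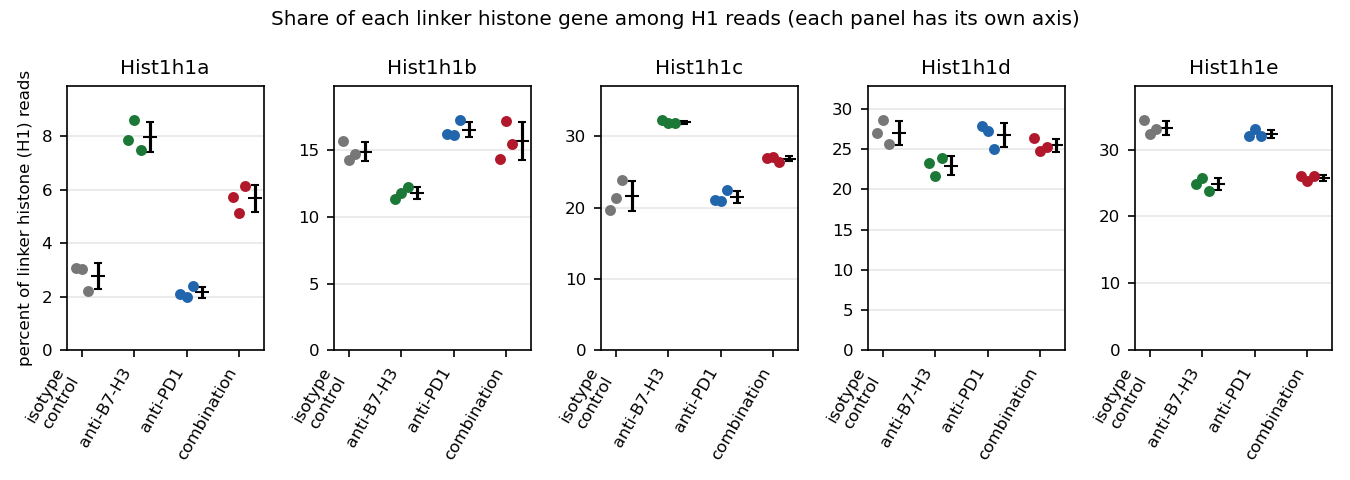
Percent of linker histone (H1) reads taken by each of 5 linker genes (vertical axes, each from 0 on its own scale) in 12 libraries by antibody group; points are libraries and bars the mean with its SD (n = 3). Hist1h1a and Hist1h1c lie higher, and Hist1h1e lower, in every anti-B7-H3 and combination library than in every isotype control and anti-PD1 library.

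The combination was compared with anti-B7-H3 to ask what adding anti-PD1 to anti-B7-H3 did. Of 61 members that passed the filter on low counts, 27 were called higher (adjusted p under 0.05) and 1 lower, against 19.8% higher and 19.1% lower of the 13478 genes tested. The median log2 fold change over members was 0.20, against 0.01 over all genes tested. It lay between 0.18 and 0.30 under the alternatives other than scaling to summed histone reads. That scaling compares members with their own family and so holds the family near 0. Satellite-like genes took 30.1% to 34.0% of matched reads under the combination and at most 0.222% under anti-B7-H3. The median was 0.24 without those genes and 0.22 with background subtracted, where 15.4% of all genes were higher and 15.2% lower. H4 had the most calls, with 10 of 12 genes higher and a median of 0.37, followed by H3 with 7 of 12 higher and 1 lower. Of 15 H2a genes 4 were higher, of 16 H2b genes 3, and of 6 linker genes 3.

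Among linker genes, Hist1h1b had 493, 561 and 589 reads under the combination against 385, 353 and 397 under anti-B7-H3, with no overlap, and rose by 0.73 ± 0.0701 (log2 fold change ± SE, adjusted p = 2.74e-14). Hist1h1d rose by 0.47 ± 0.0539 (adjusted p = 2.35e-11) and Hist1h1e by 0.38 ± 0.0515 (adjusted p = 4.98e-09). Hist1h1a and Hist1h1c did not pass, with values of -0.16 and 0.07. These members hold over 60% of stretches of their own.

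Among core genes, the H3 gene Hist1h3b had 550, 581 and 603 reads under the combination and 553, 402 and 384 under anti-B7-H3. The highest anti-B7-H3 library reached the combination in reads, but the groups did not overlap after scaling, at 52.6 ± 4.20 CPM against 35.1 ± 5.63, and the rise was 0.58 ± 0.0892 (adjusted p = 1.70e-05). Hist1h3g, an H3 gene, had 182, 177 and 225 reads against 157, 132 and 154 and rose by 0.60 ± 0.108 (adjusted p = 4.52e-06). The H4 genes Hist1h4h, Hist1h4c, Hist1h4m and Hist1h4d rose by 0.40 ± 0.0668 (adjusted p = 1.09e-06), 0.37 ± 0.0697 (adjusted p = 1.03e-05), 0.43 ± 0.0941 (adjusted p = 1.79e-03) and 0.31 ± 0.0671 (adjusted p = 3.64e-04). The 1 lower member was the H3 gene Hist1h3a, with 113, 109 and 141 reads against 170, 154 and 187 and a log2 fold change of -0.30 ± 0.121 (adjusted p = 4.39e-02), a call that stood in 12 of 23 alternatives.

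Relative to the family, most of these differences were within the spread. With library size set to the summed histone reads, Hist1h1b was 0.48 higher (adjusted p = 4.59e-07), Hist1h1d 0.21 higher (adjusted p = 3.85e-03) and Hist1h3b 0.32 higher (adjusted p = 7.81e-04) under the combination than under anti-B7-H3, while Hist1h4c and Hist1h4d were at 0.11 and 0.05 and did not pass. Hist1h1a was lower than the family there, by a log2 value of -0.42, and passed.

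Anti-PD1 was compared with isotype control to ask what blocking PD1 did. Of 61 members 31 were called higher and 0 lower, against 17.5% higher and 20.9% lower of all genes tested, with a median log2 fold change of 0.42. This did not stand when background was subtracted, where 3 members were higher and 2 lower with a median of 0.02, against 15.1% higher and 10.3% lower of all genes and a median of 0.13. Of 12 H4 genes 10 were called higher (median 0.64), of 12 H3 genes 7, of 6 linker genes 4, of 16 H2b genes 6 and of 15 H2a genes 4. At an unadjusted p under 0.05 edgeR had 0 members lower, and the DESeq2 Wald test called 1 lower after adjustment.

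The H3 gene Hist2h3b of cluster 2 had 89, 69 and 84 reads under isotype control, 409, 339 and 319 under anti-B7-H3, 460, 417 and 438 under anti-PD1 and 415, 316 and 332 under the combination. In scaled terms anti-PD1 stood above all the others, at 54.9 ± 2.68 CPM against 28.8 ± 2.10 under isotype control, 28.0 ± 2.60 under anti-B7-H3 and 32.3 ± 5.67 under the combination. It rose by 0.93 ± 0.120 against isotype control (adjusted p = 6.58e-08) and kept the call under all 23 alternatives in which it is a feature of its own, with 0.48 when background was subtracted (adjusted p = 8.14e-03) and 0.52 relative to the family (adjusted p = 4.33e-04). Only 5.51% of its stretches are its own, and its coding sequence differs from that of Hist2h3c2 at 1 base. Reads of these copies cannot be told apart over most of their length, and Hist2h3c2 was at 35.6 ± 6.76 CPM under isotype control, 30.7 ± 6.94 under anti-PD1 and 34.1 ± 7.69 under the combination. The pair summed to 64.4 ± 7.94 CPM under isotype control and 85.5 ± 4.96 under anti-PD1. Joined to 1 feature, an alternative added after seeing the data, the pair rose by 0.43 ± 0.0752 (adjusted p = 3.26e-06), less than the value of Hist2h3b alone.

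Other members named for anti-PD1 rest on fewer reads. Hist1h2af, an H2a gene, had 41, 29 and 49 reads under isotype control and 280, 210 and 226 under anti-PD1 and rose by 1.08 ± 0.330 (adjusted p = 3.14e-02), a call kept in 16 of 23 alternatives. Hist1h2bh, an H2b gene, had 23, 2 and 8 reads against 65, 55 and 60, and its groups overlapped after scaling. Its log2 fold change was 0.94 ± 0.351 (adjusted p = 3.73e-02), and 13 of 23 alternatives kept the call.

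The anti-B7-H3 libraries were set against isotype control to ask what blocking B7-H3 did. Of 61 members 15 were called higher and 7 lower, which is 24.6% and 11.5% of them, against 30.8% higher and 33.3% lower of all genes tested. The median was 0.09, and -0.46 with 2 members higher and 32 lower when background was subtracted, against 32.6% higher and 23.6% lower of all genes and a median of 0.23. With effective lengths as an offset 7 were higher and 11 lower, against 30.3% and 33.2% of all genes. Without the satellite-like genes 27 were higher and 3 lower, against 33.6% and 40.2%. The direction of the family in this comparison thus changed with the scaling.

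Hist1h2bc, an H2b gene, had 36, 21 and 22 reads under isotype control and 235, 220 and 220 under anti-B7-H3 and rose by 0.92 ± 0.162 (adjusted p = 9.98e-07), with no stretch of its own. The H3 gene Hist2h3c1 had 68, 21 and 18 reads against 325, 277 and 304 and rose by 0.91 ± 0.293 (adjusted p = 2.06e-02). Both had positive values with background subtracted, 0.37 for each, which did not pass. The transcript of Hist1h2bc has 2 exons and 742 bases after the stop codon, with no stem-loop found. Of 16 tested members with over 1 exon or at least 500 bases after the stop codon, 7 were higher and 2 lower. Of the 45 others, 8 were higher and 5 lower, and the medians of these sets were close, at 0.12 and 0.09. Of all genes tested, 30.8% were higher and 33.3% lower. Hist1h3g had 51, 46 and 76 reads under isotype control and 157, 132 and 154 under anti-B7-H3 and fell by 0.82 ± 0.147 (adjusted p = 1.57e-06), a call that stood in all 23 alternatives. The H2a gene Hist1h2an had 41, 25 and 29 reads against 108, 89 and 73 and fell by 0.66 ± 0.203 (adjusted p = 3.55e-03), with a background-subtracted value of -1.23. Hist3h2ba, an H2b gene of cluster 3, had 14, 3 and 7 reads against 24, 15 and 13 and fell by 1.04 ± 0.424 (adjusted p = 2.77e-02), with overlapping groups and 8.75 reads expected from background under isotype control.

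The combination against isotype control asked what both antibodies did. Of 61 members 32 were called higher and 2 lower, against 27.8% higher and 29.5% lower of all genes tested, with a median of 0.34. With background subtracted the median was -0.20, with 2 members higher and 15 lower, against 27.0% higher and 18.2% lower of all genes. H4 again had the most calls, 11 of 12 higher. Hist1h4c, an H4 gene, had 98, 56 and 70 reads under isotype control and 501, 435 and 632 under the combination, the groups did not overlap, and it rose by 0.83 ± 0.106 (adjusted p = 3.53e-10). It was at 0.18 with background subtracted, which did not pass, and at 0.48 relative to the family (adjusted p = 2.94e-04). The 2 lower members were Hist3h2ba and Hist1h2an, at -1.08 ± 0.431 (adjusted p = 2.70e-02) and -0.48 ± 0.202 (adjusted p = 3.63e-02). The 3 comparisons with isotype control share its libraries.

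The combination against anti-PD1 asked what adding anti-B7-H3 did. Of 61 members 4 were called higher and 10 lower, against 23.1% higher and 23.4% lower of all genes tested, and the median was -0.06, or -0.25 with background subtracted and 0.08 with no filter. The higher members were Hist1h1a, Hist1h1c, the H2a gene Hist2h2aa2 at 0.16 ± 0.0564 (adjusted p = 1.58e-02) and Hist1h3b at 0.26 ± 0.0929 (adjusted p = 2.71e-02). Hist2h3b fell by 0.77 ± 0.0861 (adjusted p = 1.75e-09) and Hist3h2a, an H2a gene of cluster 3 with 81.0% of its stretches its own, fell by 0.43 ± 0.121 (adjusted p = 2.43e-03). Hist3h2a had 145, 98 and 122 reads under anti-PD1 and 121, 115 and 138 under the combination, and the groups did not overlap after scaling. The call of Hist3h2a stood under all 24 alternatives and that of Hist2h3b under all 23 in which it is a feature of its own. Joined with Hist2h3c2, Hist2h3b fell by 0.36 ± 0.0572 (adjusted p = 1.47e-07), to 66.4 ± 2.76 CPM for the pair under the combination.

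**Figure D3:**
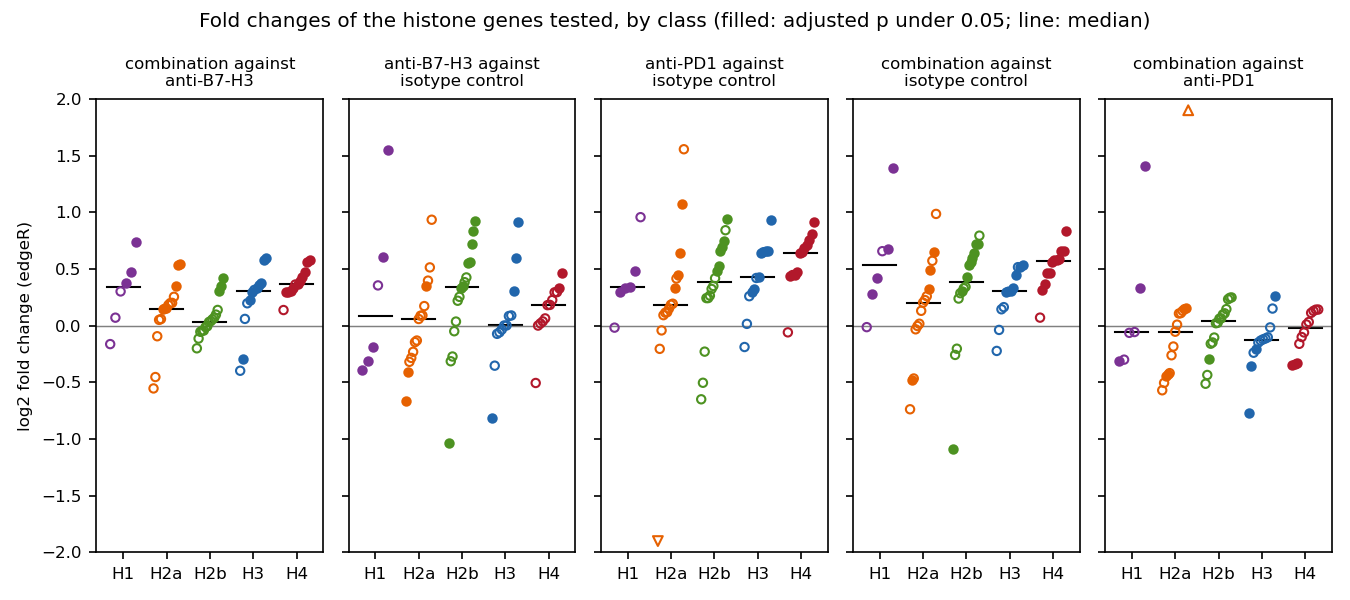
Log2 fold change (vertical axis) of the 61 histone genes tested, by class (horizontal axis), in 5 comparisons of 3 against 3 libraries; filled points passed an adjusted p under 0.05, lines are class medians and triangles mark values beyond the axis. H4 genes lie above 0 in all of the combination against anti-B7-H3 panel, Hist1h1a stands apart in H1 wherever anti-B7-H3 is added, and the anti-B7-H3 and combination panels against isotype control turn to a median below 0 when background is subtracted.

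**Figure D4:**
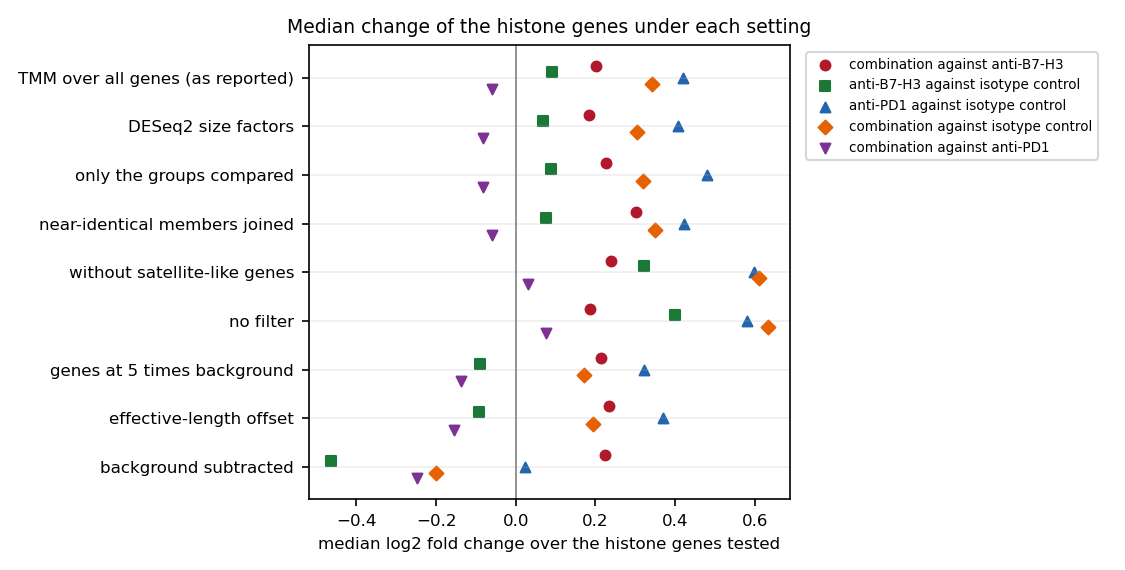
Median log2 fold change over the histone genes tested (horizontal axis) under 9 settings (vertical axis) in 5 comparisons. The combination against anti-B7-H3 stays between 0.18 and 0.30, whereas anti-B7-H3 against isotype control runs from -0.46 with background subtracted to 0.40 with no filter.

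How reads were divided between near-identical copies could be seen in single members. The H2a gene Hist1h2ad, which differs from Hist1h2ag at 2 bases, had 0, 44 and 28 reads under isotype control, 0, 87 and 181 under anti-B7-H3, 0, 0 and 0 under anti-PD1 and 85, 0 and 89 under the combination. Hist1h2ag had 0, 37 and 0 reads, 81, 60 and 180, 158, 62 and 93, and 82, 117 and 90 in the same order. Libraries of 1 group differed from none to many reads in these genes, so no fold is read from them. Joining members at least 98% identical left 32 features, of which 17 were higher under the combination against anti-B7-H3, with a median of 0.30. Of all genes in that fit, 19.9% were higher and 19.2% lower. The 13 tested members with at least 60% of stretches their own had a median of 0.30 for the combination against anti-B7-H3. That threshold was chosen after seeing the data. Against isotype control their medians were 0.34 for anti-PD1 and -0.05 for anti-B7-H3. Under anti-B7-H3 2 of them were higher and 4 lower, shares no larger than the 30.8% and 33.3% of all genes tested.

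Of the testis forms, a pair was near the limit of detection. Hist1h2aa and Hist1h2ba, the H2A and H2B forms of male germ cells, did not pass the filter, had 0 reads in every anti-B7-H3 and combination library, and under isotype control had 5 and 8 reads over 3 libraries against 8.95 and 8.82 expected from background. Hist1h1t, the testis linker histone, had 3, 2 and 4 reads under isotype control, 15, 17 and 20 under anti-B7-H3, 16, 15 and 19 under anti-PD1 and 17, 19 and 20 under the combination. The isotype control reads were under the 14.5 expected from background, whereas under anti-B7-H3 its 52 reads compare with 0.180 from background, so that it was above background there. It passed the test in none of the comparisons with isotype control. Of 6 spermatogenic cell genes, Prm1, Prm2, Sycp3 and Tnp1 had 0 reads under anti-B7-H3, and the list held 7 reads over the 3 libraries.

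Genes that transcribe, cut and degrade histone messages were read as a list of 21, of which 20 were tested. Slbp, which encodes the stem-loop binding protein, passed in none of the comparisons, with log2 fold changes of -0.19 ± 0.181 under anti-B7-H3, -0.10 ± 0.187 under anti-PD1 and -0.13 ± 0.182 under the combination against isotype control and 0.05 ± 0.128 under the combination against anti-B7-H3. Its reads over 3 libraries were 94 under isotype control, 372 under anti-B7-H3, 250 under anti-PD1 and 336 under the combination. In the combination against anti-B7-H3 2 of 20 passed, both higher, fewer than the 19.8% higher and 19.1% lower of all genes. These were the cyclin gene Ccne2 by 0.67 ± 0.223 (adjusted p = 1.22e-02, 122 against 88 reads) and the cap-binding gene Ncbp1 by 0.39 ± 0.0942 (adjusted p = 5.74e-04).

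Against isotype control, 6 of 20 genes were higher and 5 lower under anti-B7-H3, shares no larger than the 30.8% and 33.3% of all genes. Npat and Casp8ap2, which act in histone gene transcription at histone locus bodies, had 173 and 216 reads under isotype control, of which background would give 97.9 and 122. Their log2 fold changes of -0.55 ± 0.136 (adjusted p = 3.15e-04) and -0.53 ± 0.137 (adjusted p = 7.12e-04) became -0.07 and -0.06 with background subtracted and did not pass, so no direction is read from them. Eri1, a nuclease that trims the stem-loop end, rose by 0.80 ± 0.219 (adjusted p = 1.06e-03), and by 1.01 with background subtracted (adjusted p = 6.42e-03). Cpsf3, the nuclease that cuts the histone message, was 0.86 ± 0.156 higher (adjusted p = 2.16e-06), which became 0.41 with background subtracted and did not pass. Lsm10 and Lsm11, of the U7 particle that guides cutting, held 10 and 11 reads under isotype control against 7.98 and 24.9 from background, so none is read from them either. Zfp473 was not tested, with 25 reads against 30.3.

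Genes of DNA copying and of cell division gave the setting in which histone messages were read. Of 26 S phase genes, 12 were higher under the combination than under anti-B7-H3 (median 0.25), among them the origin licensing gene Cdc6 by 1.04 ± 0.217 (adjusted p = 6.30e-05) and the primase gene Prim1 by 0.96 ± 0.191 (adjusted p = 2.95e-05). All 18 mitosis genes were higher there (median 0.67), among them Cenpf by 0.96 ± 0.0549 (adjusted p = 2.13e-24) and Kif11 by 0.90 ± 0.0718 (adjusted p = 1.13e-17). Of all genes tested, 19.8% were higher and 19.1% lower in that comparison. Against isotype control, anti-B7-H3 had 2 of 26 S phase genes higher and 9 lower and 16 of 18 mitosis genes lower, and anti-PD1 had 8 S phase genes higher and 1 lower and 5 mitosis genes higher. Shares of all genes were 30.8% higher and 33.3% lower for anti-B7-H3 and 17.5% and 20.9% for anti-PD1. The 9 lower S phase genes under anti-B7-H3 were thus near the share of all genes. With background subtracted, anti-B7-H3 had 3 S phase genes higher and 12 lower and 18 mitosis genes lower, and anti-PD1 had 5 S phase genes higher and, of the mitosis genes, 2 higher and 1 lower. The shares of all genes there were 32.6% higher and 23.6% lower for anti-B7-H3 and 15.1% and 10.3% for anti-PD1.

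Histone reads per 100 reads of the mitosis list were 137 ± 10.6 (SD, n = 3) under isotype control, 266 ± 10.7 under anti-B7-H3, 159 ± 5.79 under anti-PD1 and 195 ± 4.12 under the combination. No 2 groups overlapped, and with background subtracted the values were 153 ± 12.9, 266 ± 10.7, 162 ± 5.81 and 196 ± 4.15, where isotype control and anti-PD1 overlapped. With reads divided by effective length the values were 1868 ± 233, 2905 ± 124, 2029 ± 85.3 and 2233 ± 27.8, and isotype control overlapped with anti-PD1 before subtraction too. With both steps isotype control (1850 to 2456) also overlapped with the combination (2210 to 2263). Per 100 reads of the S phase list they were 292 ± 26.3, 382 ± 23.9, 334 ± 4.64 and 350 ± 7.62. With background subtracted these were 391 ± 56.0, 382 ± 23.9, 353 ± 3.32 and 352 ± 7.72, and isotype control overlapped with every other group. Relative to S phase genes the groups were thus not separated once background was subtracted. With effective lengths as well, anti-PD1 (2146 to 2224) lay above anti-B7-H3 (1846 to 2085) and the combination (1924 to 2027) there, and isotype control (1950 to 2724) overlapped with all. Relative to mitosis genes anti-B7-H3 stood above the others in every form.

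Histones made outside S phase were read beside them. Of 11 replacement and variant genes, anti-B7-H3 had 6 higher and 1 lower than isotype control (3 and 3 with background subtracted) and the combination had 2 higher and 3 lower than anti-B7-H3. Of all genes, 30.8% were higher and 33.3% lower in the first comparison, or 32.6% and 23.6% with background subtracted. In the second, 19.8% were higher and 19.1% lower. For a list of 11, the counts of 3 and 3 and of 2 and 3 were near those shares. H2afj, an H2A variant, rose by 1.17 ± 0.222 under anti-B7-H3 (adjusted p = 4.37e-06), and by 0.78 with background subtracted (adjusted p = 2.10e-02). H2afy2, a macroH2A gene, had 43 reads under isotype control, of which background would give 25.7, and 23 under anti-B7-H3. It fell by 3.04 ± 0.404 (adjusted p = 7.66e-10), or by 2.50 with background subtracted (adjusted p = 1.45e-03). H1f0, the replacement linker histone of resting cells, was lower under the combination than under anti-B7-H3 by a log2 fold change of -0.48 ± 0.106 (adjusted p = 1.34e-04), and H2afj by -0.51 ± 0.134 (adjusted p = 1.37e-03). In the same comparison the centromeric H3 variant Cenpa rose by 0.55 ± 0.174 (adjusted p = 7.95e-03).

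Of 15 histone chaperones, which carry histones to DNA, 8 were higher and 0 lower under the combination than under anti-B7-H3. The shares of all genes were 19.8% higher and 19.1% lower. Anp32e, the chaperone of H2A.Z, rose by 0.81 ± 0.0930 (adjusted p = 2.22e-11) and Nasp, which stores H3 and H4, by 0.64 ± 0.0996 (adjusted p = 1.69e-07). Chaf1a, of the factor that places H3 and H4 on copied DNA, rose by 0.33 ± 0.134 there (adjusted p = 4.45e-02) and fell by 1.62 ± 0.154 under anti-B7-H3 against isotype control (adjusted p = 6.89e-15), or by 1.82 with background subtracted (adjusted p = 4.20e-09).

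Some markers of other cells moved with the same groups and others did not. The summed level of 7 macrophage genes was 242 to 259 CPM under isotype control, 2217 to 2233 under anti-B7-H3, 351 to 367 under anti-PD1 and 1079 to 1090 under the combination. For 6 fibroblast genes it was 1755 to 2023, 6521 to 6664, 3864 to 4099 and 4229 to 4287 in the same order. For 7 B cell genes it was 39.0 to 51.6, 1991 to 2013, 52.7 to 59.8 and 337 to 349, but Ighm, an antibody heavy chain gene, held 75368 of the 75988 reads of the list under anti-B7-H3 and 11235 of 11430 under the combination. The other 6 genes summed to 13.0 to 22.4, 15.3 to 17.1, 5.14 to 6.53 and 4.34 to 7.04 CPM, and under isotype control background would give 128 of their 154 reads. For 7 T cell genes the sum was 14.1 to 16.7, 26.1 to 29.1, 4.50 to 6.41 and 11.9 to 14.7, and background would give 122 of the 130 reads under isotype control and 87.5 of the 125 under anti-PD1. Red blood cell genes were at 32.4 to 42.7, 29.1 to 29.97, 91.2 to 98.7 and 23.7 to 27.6. Germinal centre B cell genes were at 37.7 to 52.4, 28.8 to 34.4, 44.1 to 49.3 and 32.5 to 34.4, lower with anti-B7-H3 than without it. Background would give 148 of their 378 reads under isotype control. The macrophage list and Ighm were highest under anti-B7-H3 and next under the combination, as the Hist1h1a share was, and so was the fibroblast sum, although without Col3a1 its anti-PD1 and combination ranges overlap. The part of these cells in the linker and core histone results was not tested.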

How the data were processed

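Per the file headers, the deposited tables give estimated counts, TPM values and lengths (coding and effective) for each transcript. Per the labels' protocols, total RNA (integrity number at least 7.0) underwent ribosomal RNA removal and library preparation with the Illumina TruSeq kit. FastQC 0.11.8 and GRCm38 are named in the submitters' processing notes. The program that counted reads and its strand setting are not given in the sources used here. TPM values that the authors deposited were not used. Of 58083 transcripts, 87.3% have lengths that are multiples of 3, so lengths are coding lengths, and 57473 matched GENCODE M21.

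The estimated counts deposited by the authors were summed per gene and rounded. All 12 libraries entered 1 fit with edgeR 4.0.16 (R 4.3.3), with TMM scaling, its default filter on low counts, a mean for each group and the quasi-likelihood F test with robust spread, with Benjamini-Hochberg adjustment over 13478 genes and a threshold of 0.05. The code was tested on simulated data. An SE is the log2 fold change divided by the square root of F. The interaction is the log2 effect of the combination minus those of the single antibodies added together. Background is the read rate per kilobase of 1550 chemoreceptor genes times coding length, and precision follows from the reads given. Alternatives were DESeq2 1.42.0 size factors and Wald test, no filter, a replicate block, fits of only the groups compared, background subtracted, an effective-length offset, genes at least 5 times background, no satellite-like genes, a spread that is not robust, 2-fold calls, each library left out and, added after seeing the data, near-identical members joined, Hist2h3b joined with Hist2h3c2 and scaling to summed histone reads.

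Named genes are all linker genes, the 3 members per core class with most reads per kilobase, the 3 called members per direction and comparison with the largest change and at least 30 reads, the message-processing list, and up to 2 called genes per direction of other lists. Hist1h2ad, Hist1h2ag, the testis forms, Cenpa and some examples outside this rule were chosen after their values were seen. The members and lists were chosen with earlier results of these data known.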

Additional observations from a re-analysis of the deposited data

Results flagged for a closer look

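In 14 members the log2 effect of the combination differed from the single effects added together, by edgeR's interaction term at an adjusted p under 0.05. This is 2 higher and 12 lower of 61 tested, against 19.1% higher and 17.3% lower of all genes. A value below 0 means that the combination was lower than those added effects. In H3 the interaction was -1.05 (log2) for Hist2h3c1, -0.73 for Hist2h3b, -0.72 for Hist1h3a, -0.42 for Hist1h3c, -0.36 for Hist1h3h and 0.58 for Hist1h3g. In H2b it was -0.86 for Hist1h2bc, -0.71 for Hist1h2bn, -0.64 for Hist1h2bq and -0.49 for Hist1h2be. In H4 it was -0.67 for Hist1h4f and -0.41 for Hist1h4a, in H2a 0.35 for Hist1h2ai and in H1 -0.27 for Hist1h1c. All terms use the isotype control libraries, and with background subtracted 13 members were higher and 1 lower. Hist1h3g and Hist1h2ai kept their sign and their call there, at 1.03 (adjusted p = 2.30e-04) and 0.84 (adjusted p = 1.67e-04). The median over members moved there from -0.23 to 0.21, so values above 0 before subtraction were likely to stay above 0. Only 21.3% of the stretches of Hist1h3g and 13.2% of those of Hist1h2ai are their own. With near-identical members joined, no feature was called higher. Joined with its 1-base copy Hist2h3c2, Hist2h3b gave -0.17 and did not pass. Hist1h1a gave -0.15 ± 0.236 and did not pass.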

How the results depend on the processing

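Counts of members called higher and lower follow 1 order, first anti-B7-H3, then anti-PD1 and then both antibodies, each against isotype control, next the combination against anti-B7-H3, then against anti-PD1, and last the interaction. Shares of all genes over the settings below, those leaving out a library and 2-fold calls aside, ran from 26.9% to 33.6% higher and 23.6% to 49.2% lower, 14% to 24.3% and 10.3% to 28.9%, 24.4% to 34.2% and 18.2% to 46.2%, 13.9% to 21.8% and 11.7% to 22.6%, 19.8% to 24.6% and 17.7% to 31.9%, and 13.3% to 22.4% and 15.1% to 19.8%. The lowest share lower in the first comparison was with background subtracted and the highest with no filter. As reported, member counts were 15 and 7, 31 and 0, 32 and 2, 27 and 1, 4 and 10 and then 2 and 12. With background subtracted they were 2 and 32, 3 and 2, 2 and 15, 23 and 0, 2 and 23 and then 13 and 1. With the effective-length offset they were 7 and 11, 27 and 0, 18 and 3, 29 and 0, 2 and 15 and then 4 and 7. For genes at least 5 times background they were 6 and 11, 20 and 0, 15 and 4, 27 and 1, 2 and 15 and then 6 and 6. Without satellite-like genes they were 27 and 3, 39 and 0, 46 and 0, 29 and 0, 8 and 7 and then 1 and 20. With no filter they were 36 and 3, 39 and 1, 46 and 2, 23 and 1, 14 and 6 and then 0 and 21. With near-identical members joined they were 7 and 4, 20 and 0, 21 and 1, 17 and 0, 3 and 7 and then 0 and 6. By the DESeq2 Wald test they were 14 and 7, 29 and 1, 28 and 2, 22 and 0, 4 and 12 and then 1 and 13. By DESeq2 size factors they were 14 and 7, 31 and 0, 27 and 2, 26 and 1, 4 and 12 and then 2 and 13. With a spread that is not robust they were 15 and 7, 31 and 1, 34 and 1, 24 and 1, 5 and 11 and then 2 and 12. At 2-fold or more they were 1 and 1, 1 and 0, 1 and 1, 0 and 0, 1 and 0 and then 0 and 1. In fits of only the groups compared they were 14 and 8, 33 and 0, 27 and 2, 29 and 2 and then 4 and 13, with no interaction. Leaving out 1 library gave 10 to 18 higher and 3 to 8 lower for anti-B7-H3, 22 to 36 higher and 0 lower for anti-PD1, 24 to 36 higher and 0 to 2 lower for the combination, 21 to 28 higher and 0 to 2 lower for the combination against anti-B7-H3, 2 to 6 higher and 5 to 12 lower for the combination against anti-PD1, and 1 to 3 higher and 8 to 15 lower for the interaction. Those lower in anti-B7-H3 against isotype control were 4 without anti-B7-H3 replicate 2, 3 without anti-B7-H3 replicate 3 and 4 without isotype control replicate 1. For the combination against anti-PD1, 2 were higher without anti-PD1 replicate 2 and 5 lower without combination replicate 3. Other counts moved by over 1.5 times were of 1 or 2 members. In the fit with a replicate block the counts were 15 and 7, 30 and 0, 32 and 2, 26 and 1, 4 and 11 and then 2 and 11. Equal numbers did not pair the libraries, with correlations of deviations from -0.035 to 0.0476 over 18 pairs and 0 over 0.1.

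The median over members turned under anti-B7-H3 against isotype control to -0.46 with background subtracted, -0.092 with the effective-length offset, -0.090 for genes at least 5 times background and -0.0053 without isotype control replicate 1. For the combination against isotype control it turned to -0.20 and for the interaction to 0.21 with background subtracted. For the combination against anti-PD1 it turned to 0.076 with no filter, 0.030 without satellite-like genes and 0.0008 without combination replicate 1. Leaving out 1 library gave medians of -0.0053 to 0.20 for anti-B7-H3 against isotype control and -0.082 to 0.0008 for the combination against anti-PD1. With no filter the median of all genes moved to -0.78, -0.48 and -0.69 for anti-B7-H3, anti-PD1 and the combination against isotype control, and with background subtracted to 0.23, 0.13 and 0.22.

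With background subtracted, values of opposite sign were -0.075 for Hist1h1c, -0.28 for Hist1h2bb, -0.28 for Hist1h2bq, -0.36 for Hist1h3c, -0.22 for Hist1h4c, -0.35 for Hist2h2aa2 in anti-B7-H3 against isotype control, -0.13 for Hist1h1c, -0.14 for Hist1h1d, -0.18 for Hist1h1e, -0.15 for Hist1h3f, -0.020 for Hist1h4d, -0.049 for Hist1h4m, -0.15 for Hist2h2aa2 in anti-PD1 against isotype control, -0.21 for Hist1h1b, -0.39 for Hist1h1d, -0.17 for Hist1h2bb, -0.14 for Hist1h3b, -0.11 for Hist1h3c, -0.36 for Hist1h3f, -0.38 for Hist1h4d, -0.094 for Hist1h4h, -0.21 for Hist1h4m, -0.18 for Hist2h2aa2, -0.33 for Hist2h2bb in the combination against isotype control, -0.034 for Hist2h2aa2 in the combination against anti-PD1 and 0.22 for Hist1h1c, 0.058 for Hist1h3c in the interaction of both antibodies. Scaled to summed histone reads, they were -0.063 for Hist1h1c, -0.074 for Hist1h1d, -0.11 for Hist1h1e, -0.088 for Hist1h3f, -0.074 for Hist2h2aa2 in anti-PD1 against isotype control, -0.074 for Hist1h1d, -0.047 for Hist1h3f, -0.039 for Hist1h4d, -0.047 for Hist2h2bb in the combination against isotype control and -0.030 for Hist1h3c, -0.12 for Hist2h2aa2 in the combination against anti-B7-H3. For anti-B7-H3 against isotype control Hist1h1b was at 0.0018 and Hist1h1d at 0.12 with no filter, and Hist1h1d at 0.041 without satellite-like genes. Of 1995 gene values recomputed, 1701 kept direction and call, 253 lost the call and 41 had the opposite sign. Causes of these changes were not tested. Members with the same coding sequence were not joined because no 2 listed ones are the same. Few reads in isotype control libraries limit single members there, and reads shared between copies limit core members in every group.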
